A study of Mus musculus with 6 samples.

Results

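The genes described here encode non-collagenous matrix proteins of the liver scar and the enzymes that modify and crosslink collagens and other matrix proteins. The set was a named list of 33 gene symbols, and all 33 were found among the 40879 symbols of each count file. Of these, 13 encode enzymes or a collagen chaperone (lysyl oxidases, lysyl hydroxylases, prolyl 4-hydroxylase subunits, Tgm2 and Serpinh1) and 20 encode structural glycoproteins and proteoglycans. They were measured in cultures labelled as primary hepatic stellate cells of wild-type male mice and kept for 24 h with vehicle (3 libraries) or with APB-R3 (3 libraries), an engineered IL-18 binding protein. The amount of APB-R3 is 150 in both places that give it, once per ml and once per kg in µg, so that its unit is uncertain. Whether the 3 libraries of a group stem from different mice or dishes is not said in the labels, and the p-values given here cover the spread among these samples alone, which may be technical.

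Hepatic stellate cells store vitamin A beside the sinusoids, and once activated they lay down most of the scar matrix. Prolyl and lysyl hydroxylases modify collagen chains in the endoplasmic reticulum, where the chaperone HSP47, encoded by Serpinh1, binds the folded triple helix. Outside the cell, lysyl oxidases oxidise lysines of collagen and elastin and so start covalent crosslinks, and transglutaminase 2 links glutamines to lysines. Small leucine-rich proteoglycans such as decorin and biglycan sit on collagen fibrils, fibrillins and fibulins take part in elastic fibres, and tenascin C, periostin and thrombospondins are matricellular proteins that act on cells.

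The libraries held 8323809 to 10792531 counts, with the lowest total in APB-R3 replicate 1. Because reads start close to the 3' end, a transcript gives counts whatever its length, and CPM (counts scaled to the library total) was compared between genes. The annotation and strand setting behind the counts are not given, and some members overlap other genes. Levels of different genes therefore compare only roughly. The labelled cell type was checked against marker lists. All 16 stellate cell markers had counts, with Lrat at 1.68 ± 0.677, Des at 4.70 ± 1.66 and Reln at 11.5 ± 2.45 CPM (SD, n = 6), while Ngfr and Gfap were at 0 in some libraries. Endothelial markers were far more abundant gene by gene, with Lyve1 at 1715, Cdh5 at 1149, Pecam1 at 935 and Kdr at 890 CPM, and the median marker was at 323 CPM for endothelium and at 9.10 CPM for stellate cells. The labelled cell type was thus not the one whose markers led in these libraries. The 16 stellate cell markers together reached 634 to 726 CPM with vehicle against 528 to 644 CPM with APB-R3. Most of that sum came from Tagln (237 CPM), Nes (126 CPM) and Acta2 (114 CPM), genes of contractile and activated cells that other cell types also express. The 13 markers of liver endothelium together reached 6419 to 7217 CPM with vehicle against 6023 to 7009 CPM with APB-R3, none of them at 0 in any library. Macrophage markers summed to 344 to 493 and 375 to 571 CPM, hepatocyte markers to 25.4 to 98.6 and 22.1 to 35.04 CPM, and those of portal fibroblasts and mesothelium to 37.0 to 44.0 and 36.5 to 46.1 CPM. Cholangiocyte markers summed to 35.6 to 44.8 and 33.3 to 56.0 CPM, and neutrophil markers to 0.857 to 8.34 and 2.22 to 3.97 CPM. Tested were 14 of 16 stellate cell, 13 of 13 endothelial, 10 of 11 macrophage and 4 of 10 hepatocyte markers. So were 5 of 10 markers of portal fibroblasts and mesothelium, 3 of 5 of cholangiocytes and 2 of 4 of neutrophils. None of the tested markers passed between the groups, beside 0% of all 12776 genes tested. All values below are therefore values of whole cultures that hold endothelial transcripts at these levels, in which fewer cells of a type and less RNA per cell cannot be told apart, and which cells the matrix transcripts came from was not tested.

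No matrix or crosslinking gene passed the test of APB-R3 against vehicle, and the abundant ones were measured closely enough to bound their change. Over the 33 genes the summed level was 4062 ± 67.8 CPM with vehicle against 4008 ± 109 CPM with APB-R3 (SD, n = 3 each). Of the 33 genes, 28 passed the filter on low counts, and 0 of the 28 reached an adjusted p under 0.05 in edgeR's quasi-likelihood test, against 0% of all 12776 genes tested. The adjusted p was 0.9998 for each of them. The estimate was higher with APB-R3 in 10 and lower in 18, with a median log2 fold change of −0.085, beside 0.0032 over all tested genes, of which 49.3% had a lower estimate. The markers leaned too, with 11 of 13 endothelial markers lower (median −0.10) and 8 of 14 tested stellate cell markers lower (median −0.072), while 7 of 10 tested macrophage markers were higher (median 0.14). The part of these cell types in the members' estimates was not tested. The 3 members with the largest estimates on the lower side, Lum, Mgp and Fbln5, were also among the 4 at 5 CPM or less.

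The levels spanned a wide range (plot of levels by library). The top of the range held 4 genes close together. Bgn, the gene of biglycan, had a mean of 654 CPM over the 6 libraries, Thbs1 (thrombospondin 1) 632, Loxl2 (lysyl oxidase-like 2) 618 and Tgm2 (transglutaminase 2) 591 CPM, each above 98.4% of all tested genes. Their ranges over libraries overlapped from each to the next, so that the order within this group is not fixed by the data. Tnc (tenascin C) at 314 and Dcn (decorin) at 308 CPM formed the next step, and no library of Tnc reached a library of Tgm2. Fn1, the fibronectin gene often read as a mark of activation, was at 88.0 CPM. Of the 33 genes, 10 were above 100 CPM, 6 of them enzyme or chaperone genes, and 4 were under 1 CPM, namely Mfap5, P4ha3, Fbln1 and Eln.

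**Figure D1:**
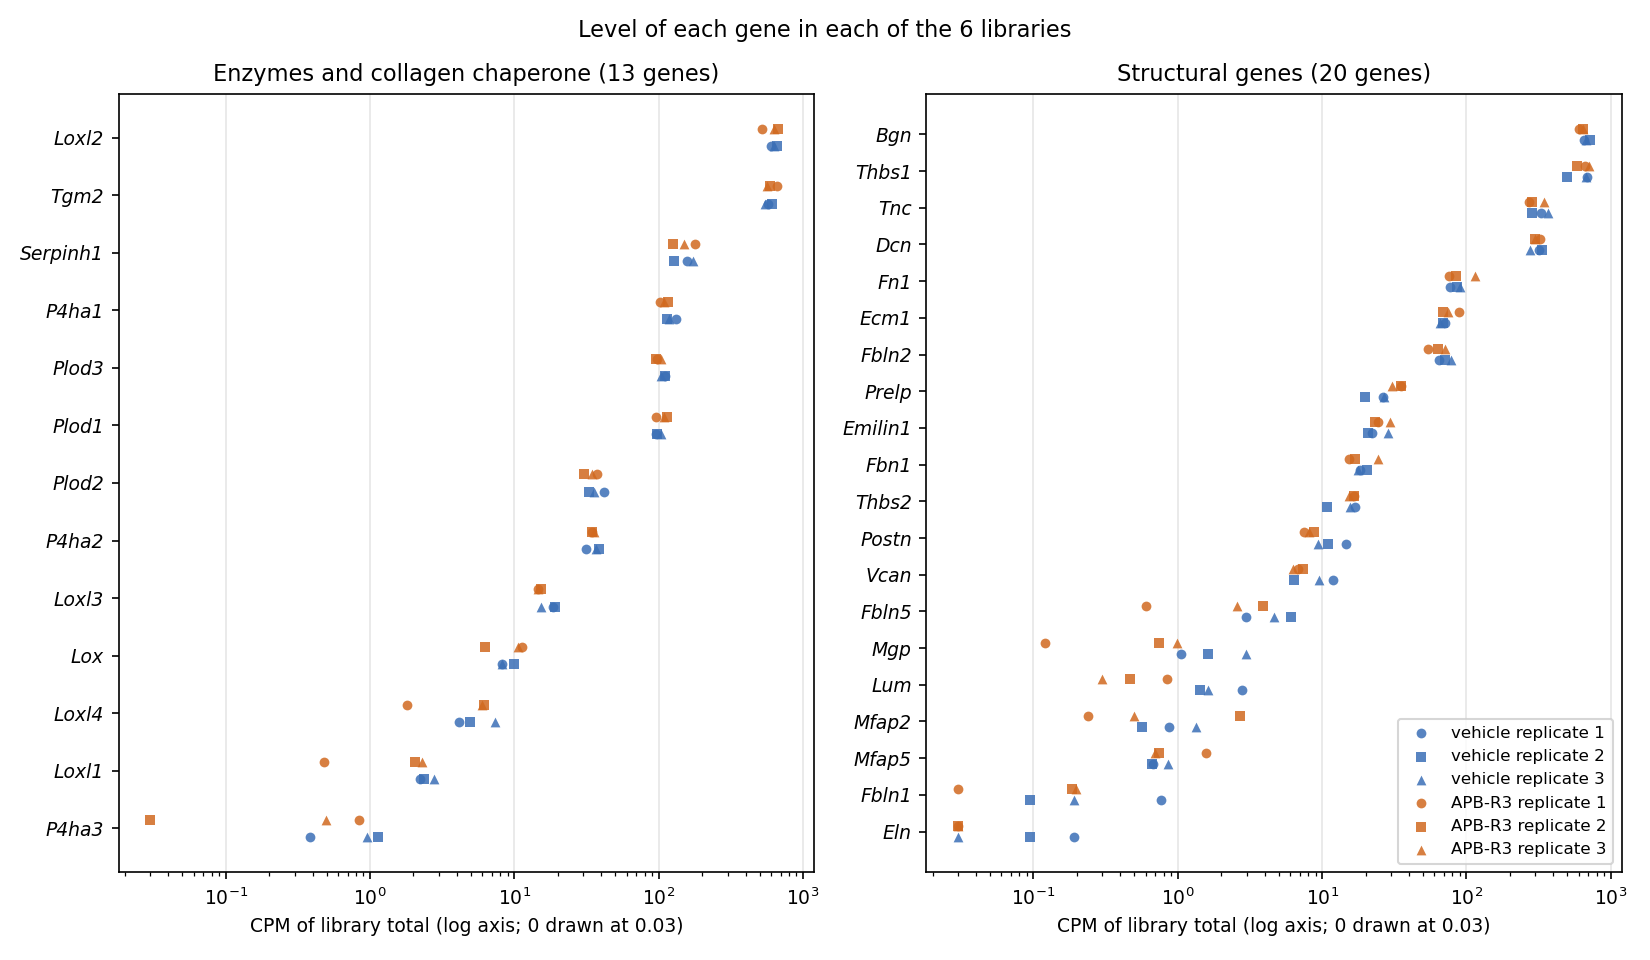
Level of each of the 33 genes in each library, in CPM of the library total on a log axis, with vehicle libraries in blue, APB-R3 libraries in orange and replicate numbers as symbols. Bgn, Thbs1, Loxl2 and Tgm2 sit between 498 and 719 CPM, the groups overlap for all genes above 50 CPM except Bgn, and APB-R3 replicate 1 stands to the left for Loxl1, Loxl4, Fbln5 and Mgp.

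Among the crosslinking enzymes, Loxl2 carried nearly all counts of its family. Loxl2 took 94.7% to 95.7% of the lysyl oxidase counts in every library, of which there were 4587 to 7533. In vehicle replicates 1 to 3 it had 596, 662 and 633 CPM, and in APB-R3 replicates 1 to 3 it had 523, 668 and 625 CPM. The groups overlapped, with the lowest value in APB-R3 replicate 1, and the log2 fold change was −0.063 (SE 0.094, 95% interval from −0.26 to 0.13). Lox, the founding member of the family, had only 8.24, 9.93 and 8.18 CPM with vehicle against 11.3, 6.30 and 10.6 CPM with APB-R3, and the log2 fold change was 0.084 (SE 0.26). Loxl3, a further member, had 18.6, 19.1 and 15.3 CPM with vehicle against 14.7, 15.2 and 14.6 CPM with APB-R3. Its groups did not overlap on library totals, the estimate was −0.26 (SE 0.18), and on TMM-scaled library sizes the groups did overlap.

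Loxl1, an enzyme tied to elastic fibres, and Loxl4 had few counts and 1 library apart. Loxl1 had 2.205, 2.36 and 2.76 CPM with vehicle against 0.481, 2.04 and 2.28 CPM with APB-R3. Loxl4 had 4.12, 4.92 and 7.33 CPM with vehicle against 1.80, 6.21 and 5.96 CPM with APB-R3. In both genes APB-R3 replicate 1 was the lowest library. The log2 fold change of Loxl1 was −0.59 (SE 0.56), or −0.19 without that library, and that of Loxl4 was −0.22 (SE 0.40), or 0.14 without it. Tgm2, by contrast with these, was abundant in all libraries, with 576, 608 and 542 CPM with vehicle against 662, 593 and 564 CPM with APB-R3, and the log2 fold change was 0.070 (SE 0.090, interval from −0.12 to 0.26).

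The collagen hydroxylases were of middle abundance and had narrow intervals. Plod1, Plod2 and Plod3 encode the lysyl hydroxylases, of which the Plod2 product acts on the collagen ends that are later crosslinked, and the Plod3 product also adds sugars. Plod1 had 95.5, 98.0 and 104 CPM with vehicle against 96.4, 115 and 109 CPM with APB-R3. Plod3 had 110.05, 110.4 and 103 CPM with vehicle against 97.8, 96.3 and 103 CPM with APB-R3. The log2 fold changes were 0.098 (SE 0.10) for Plod1 and −0.13 (SE 0.097) for Plod3, and Plod2, at 36.6 ± 4.56 and 34.1 ± 3.67 CPM, had −0.11 (SE 0.14). The Plod3 groups met at 103 CPM on library totals, and they did not overlap on TMM-scaled sizes. As shares of the family's counts, Plod3 made up 44.2% ± 1.70 in vehicle and 41.3% ± 1.22 in APB-R3, Plod1 40.8% ± 2.19 and 44.4% ± 2.97, and Plod2 15.0% ± 1.67 and 14.3% ± 1.83 (SD, n = 3 each).

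P4ha1, P4ha2 and P4ha3 encode the catalytic subunits of prolyl 4-hydroxylase, whose product hydroxyproline makes the triple helix stable. P4ha1 had 131, 114 and 117 CPM with vehicle against 101, 116 and 109 CPM with APB-R3, and the log2 fold change was −0.15 (SE 0.10, interval from −0.36 to 0.058), and its groups overlapped by 1 library. P4ha2 had 35.6 ± 3.90 CPM with vehicle against 34.8 ± 0.541 CPM with APB-R3. P4ha1 took 74.0% to 80.6% and P4ha2 19.2% to 25.4% of the family's counts. P4ha3 had 4, 12 and 10 counts in vehicle and 7, 0 and 5 in APB-R3, too few to be tested, or 0.825 CPM (exact 95% Poisson interval from 0.539 to 1.21) and 0.411 CPM (0.212 to 0.718) over each group's pooled counts. The intervals overlap and cover counting error only. Serpinh1 had 157, 128 and 174 CPM with vehicle against 178, 125 and 150 CPM with APB-R3. Its log2 fold change was −0.023 (SE 0.12), with the highest and the lowest value both in APB-R3 libraries.

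**Figure D2:**
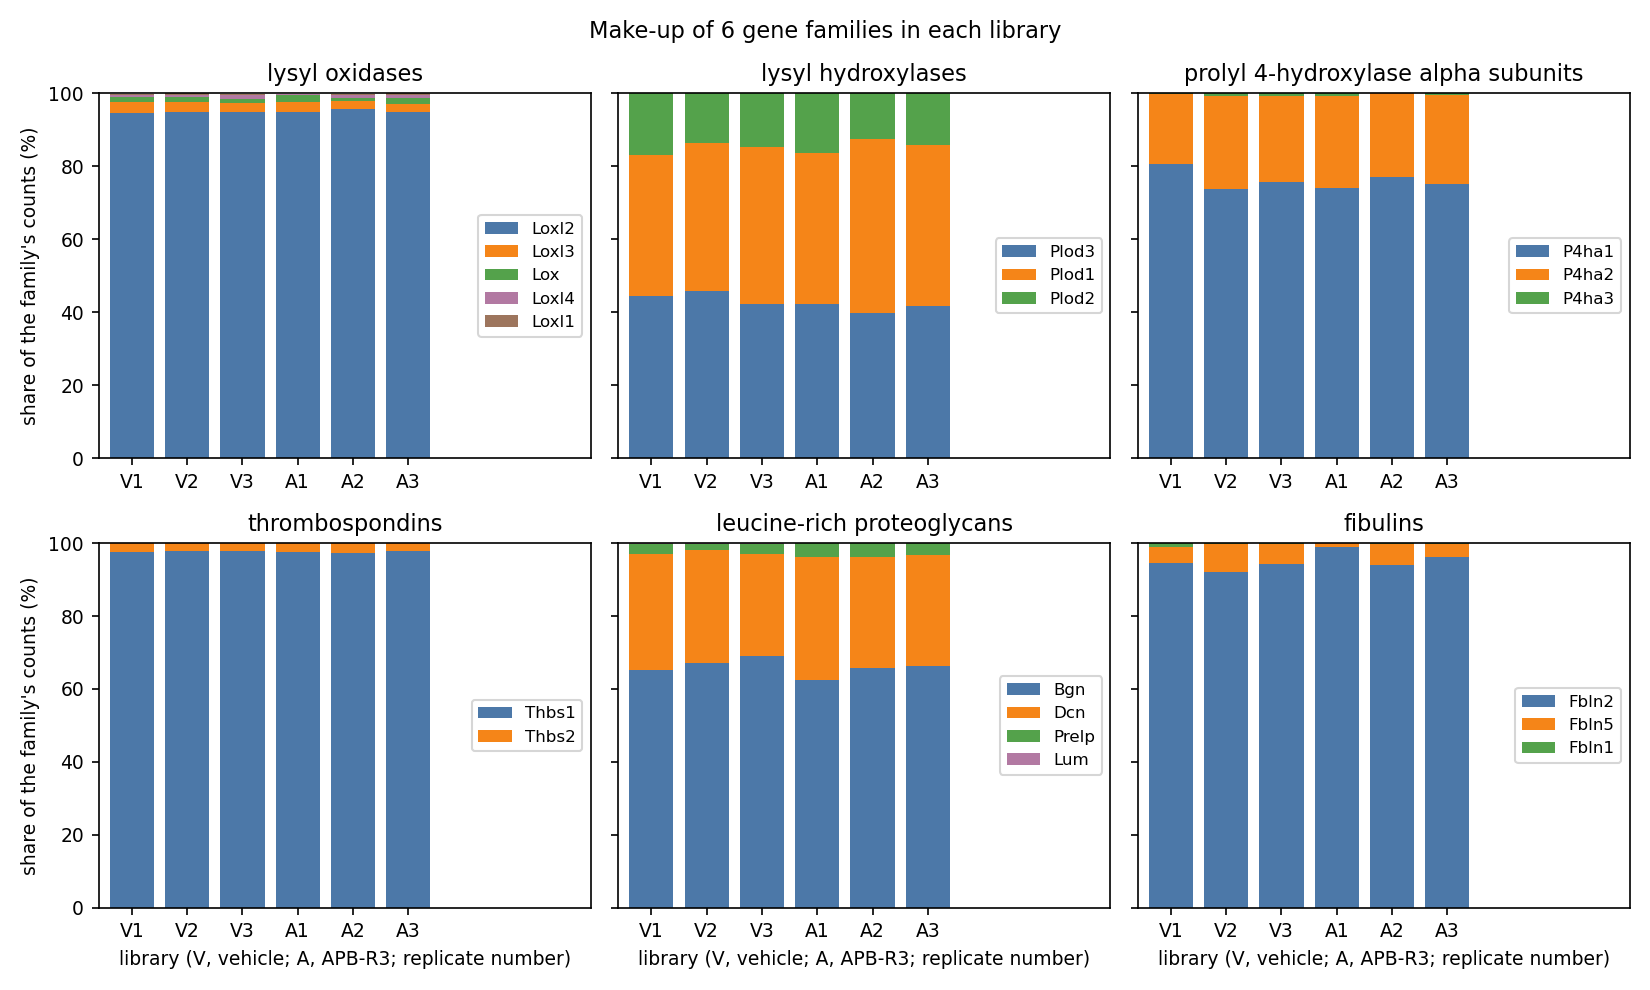
Share of each family's counts taken by each member, in percent, in the 3 vehicle libraries (V1 to V3) and the 3 APB-R3 libraries (A1 to A3). Loxl2 takes at least 94.7% of the lysyl oxidases and Thbs1 at least 97.2% of the thrombospondins in every library, while Plod1 and Plod3 share the lysyl hydroxylases almost evenly.

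Among the structural genes, the small leucine-rich proteoglycans held the members with the smallest unadjusted p on either side. Bgn, the most abundant gene of the set, had 651, 719 and 672 CPM with vehicle against 599, 641 and 644 CPM with APB-R3. Every APB-R3 library lay below every vehicle library, by a small margin, with a log2 fold change of −0.12 (SE 0.084, interval from −0.30 to 0.053). Dcn, its closest relative in the set, had 318, 332 and 274 CPM with vehicle against 326, 297 and 299 CPM with APB-R3, and its estimate was −0.011 (SE 0.095). Prelp encodes a proteoglycan that anchors basement membranes to connective tissue. It had 26.3, 19.7 and 26.6 CPM with vehicle against 35.2, 35.4 and 30.4 CPM with APB-R3. All 3 APB-R3 libraries lay above all 3 vehicle libraries, and the log2 fold change was 0.47 (SE 0.15, interval from 0.16 to 0.79). Its unadjusted p in edgeR was 0.00494, the smallest of the set, and its adjusted p was 0.9998. With 1 library left out the estimate of Prelp ran from 0.35 (without vehicle replicate 2, its lowest library) to 0.55 (without APB-R3 replicate 3). Prelp took 2.40% ± 0.493 of the counts of these 4 proteoglycan genes in vehicle and 3.47% ± 0.307 in APB-R3 (SD, n = 3 each).

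Lum, the gene of the keratan sulfate proteoglycan lumican, lay on the other side with few counts. It had 2.78, 1.42 and 1.62 CPM with vehicle against 0.841, 0.463 and 0.298 CPM with APB-R3, from 76 counts over all 6 libraries. The groups did not overlap, and the log2 fold change was −1.87 (SE 0.70, interval from −3.32 to −0.41, unadjusted p in edgeR 0.0142, adjusted p = 0.9998). Only vehicle libraries of Lum reached the 0.955 CPM that equals 10 counts in the middle library, so the gene entered the test through the group in which it was higher. The same holds in part for Mgp, the matrix Gla protein that inhibits calcification, with 3 vehicle libraries and 1 APB-R3 library over that level. Mgp had 1.05, 1.61 and 2.95 CPM with vehicle against 0.120, 0.741 and 0.993 CPM with APB-R3, and the log2 fold change was −1.55 (SE 0.73). Its groups did not overlap either, with the lowest value in APB-R3 replicate 1.

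Thrombospondins and the other matricellular genes differed in abundance far more than between the groups. Thbs1 had 681, 498 and 671 CPM with vehicle against 661, 580 and 701 CPM with APB-R3, with the lowest value in vehicle replicate 2, and a log2 fold change of 0.066 (SE 0.10). Thbs2 had 14.4 ± 3.23 CPM with vehicle against 16.2 ± 0.777 CPM with APB-R3. Tnc, low in healthy liver and raised in injured tissue, had 327, 284 and 369 CPM with vehicle against 273, 286 and 346 CPM with APB-R3. Its groups overlapped, and its estimate was −0.12 (SE 0.10, interval from −0.33 to 0.094). Postn, the periostin gene, had 14.7, 10.97 and 9.33 CPM with vehicle against 7.45, 8.80 and 8.14 CPM with APB-R3. Each APB-R3 value of Postn was under the lowest vehicle value, and the log2 fold change was −0.52 (SE 0.24, interval from −1.02 to −0.023, adjusted p = 0.9998 in edgeR), and the estimate was −0.33 without vehicle replicate 1.

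Fn1 had 76.8, 85.8 and 90.1 CPM with vehicle against 75.7, 84.6 and 115 CPM with APB-R3. Only APB-R3 replicate 3 stood above the vehicle libraries, so that the log2 fold change of 0.12 (SE 0.13) turned to −0.065 without it. Vcan, the large hyaluronan-binding proteoglycan versican, had 9.28 ± 2.74 CPM with vehicle against 6.84 ± 0.580 CPM with APB-R3, an estimate of −0.44 (SE 0.27) with overlapping groups, which was −0.23 without vehicle replicate 1 and −0.64 without vehicle replicate 2. Ecm1 encodes a secreted glycoprotein known to hold latent TGF-beta in check in the liver. It had 70.9, 68.5 and 66.0 CPM with vehicle against 88.4, 69.1 and 74.0 CPM with APB-R3. Its estimate of 0.17 (SE 0.11) was 0.051 without APB-R3 replicate 1.

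Genes of elastic fibres and microfibrils ranged from moderate levels to almost no counts. Elastin itself, Eln, had 2, 1 and 0 counts in vehicle and 0 counts in APB-R3, which allows up to 0.103 CPM there, taking 3 counts as the limit of a count of 0. Fbln1 (fibulin 1) had 8, 1 and 2 counts in vehicle and 0, 2 and 2 in APB-R3. The microfibril genes Mfap2, with 29 and 36 counts over the groups, of which 29 fell in APB-R3 replicate 2, and Mfap5, with 23 and 28 counts, were not tested either. Fbln2 (fibulin 2) took 92.1% to 98.9% of the fibulin counts. It had 64.9, 71.5 and 78.7 CPM with vehicle against 54.3, 63.8 and 70.9 CPM with APB-R3, with overlapping groups and an estimate of −0.19 (SE 0.12). Fbln5 (fibulin 5), which helps assemble elastic fibres, had 2.97, 6.05 and 4.66 CPM with vehicle against 0.601, 3.89 and 2.58 CPM with APB-R3. Its log2 fold change was −0.93 (SE 0.50), and it was −0.50 without APB-R3 replicate 1, its lowest library, −1.497 without APB-R3 replicate 2 and −1.11 with the replicate number as a block. Fbn1, the fibrillin 1 gene, had 18.8 ± 1.42 and 18.9 ± 4.92 CPM, and Emilin1, an elastin-interface glycoprotein, had 23.8 ± 4.07 and 25.6 ± 3.41 CPM.

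How far these data bound a change depended on the level of the gene (plot of fold changes). For the 13 genes above 50 CPM the log2 fold changes lay between −0.19 and 0.17, and their 95% intervals, not adjusted for the number of genes, reached from −0.44 (Fbln2) to 0.40 (Ecm1). All 13 intervals therefore excluded a change by 1.5-fold, which is 0.58 on the log2 scale, in either direction. Of the 11 tested genes between 5 and 50 CPM, 5 had intervals within that limit, and of the 4 at 5 CPM or less none had. The coefficient of variation within groups had a median of 9.36% in the upper class, 15.4% in the middle class and 45.6% in the lower class. Counting error alone would give 1.23% to 3.82% in the upper class and 16.6% to 28.1% in the lower class.

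**Figure D3:**
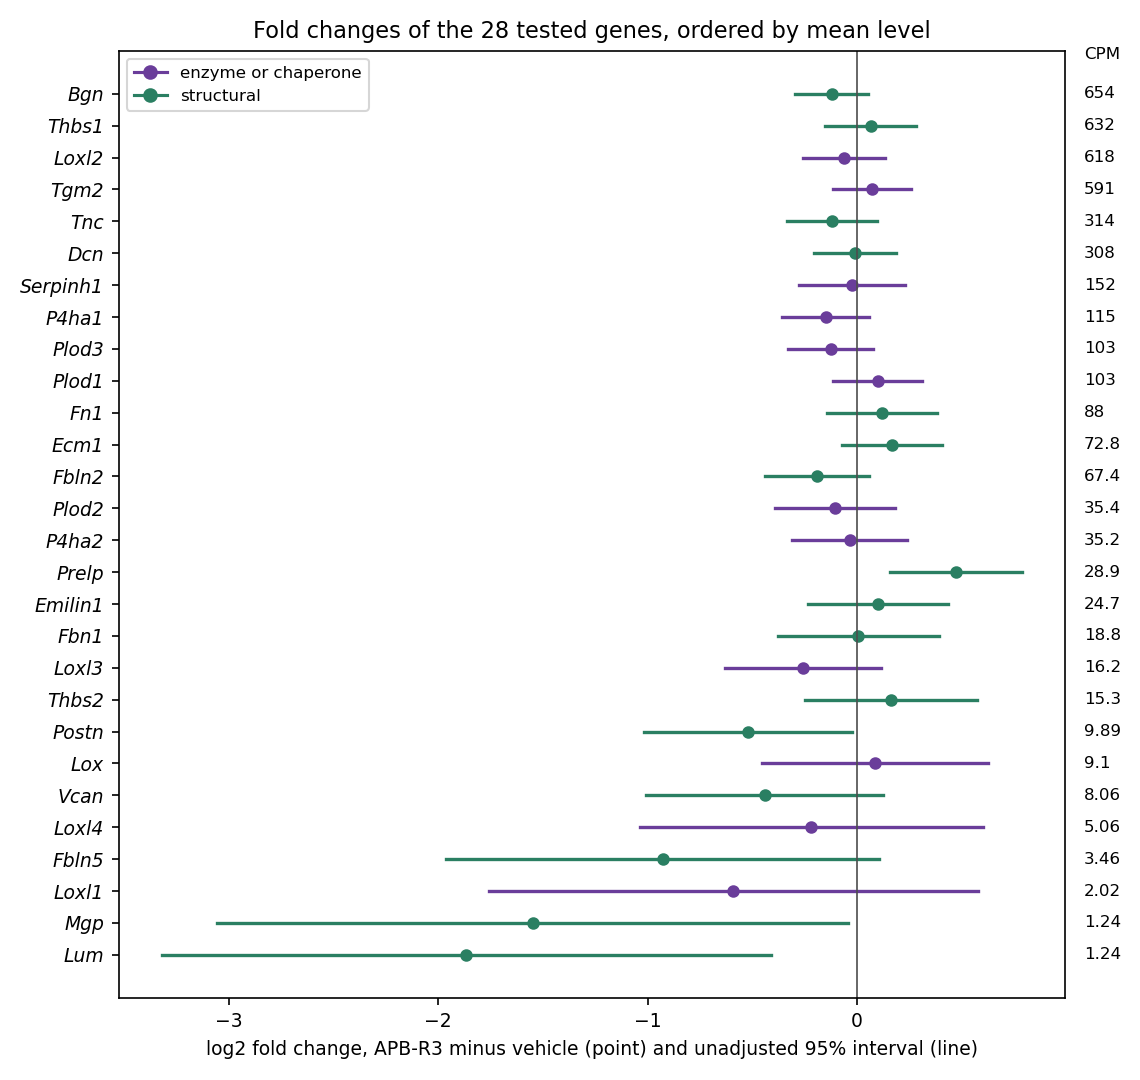
Log2 fold change of APB-R3 against vehicle (points) with its unadjusted 95% interval (lines) for the 28 tested genes, ordered by mean level, which is printed at the right in CPM. The intervals widen toward the bottom, and those of Prelp, Postn, Mgp and Lum do not cross 0.

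The groups did not overlap in 6 of the 28 tested genes, or 21.4%, beside 8.91% of all tested genes. On the lower side these were Postn, Loxl3, Bgn, Lum and Mgp, beside 4.16% of all genes, and on the higher side Prelp, beside 4.75%. At an unadjusted p under 0.05 in edgeR there were 4 members, beside 3.33% of all genes. Of these, Prelp was higher, beside 1.75% of all genes, and Lum, Postn and Mgp were lower, beside 1.57%. DESeq2 also called 0 members, with the same 4 at an unadjusted p under 0.05, beside 2.94% of all genes. With limma-voom 0 were called and 3 were at that level, beside 3.34% of all genes, namely Prelp, Lum and Fbln5, so that Postn and Mgp were lost and Fbln5 came in. Lum and Mgp, which entered the test wholly or mostly through the vehicle group, are 2 of the 6 and 2 of the 4. On TMM-scaled sizes the number was again 6, with Plod3 in place of Loxl3, but the share over all genes was taken on library totals only.

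Enzymes and structural genes had summed levels that differed little between the groups. The 13 enzyme and chaperone genes summed to 1794 ± 31.4 CPM with vehicle against 1777 ± 26.1 CPM with APB-R3, and the 20 structural genes to 2269 ± 97.1 and 2231 ± 122 CPM (SD, n = 3 each). Per library the enzyme sum was 76.7%, 84.8% and 76.1% of the structural sum in vehicle and 80.5%, 84.5% and 74.5% in APB-R3. The groups overlapped throughout, and the libraries numbered 2 had the highest ratio in both groups. Abundant genes weigh most in these sums, with Loxl2 (618 CPM) and Tgm2 (591 CPM) the largest enzyme terms. The largest structural terms were Bgn (654 CPM) and Thbs1 (632 CPM). Without Loxl2 the enzyme sum was 1163 ± 14.5 CPM with vehicle against 1172 ± 56.5 CPM with APB-R3. Without Bgn the structural sum was 1588 ± 129 CPM with vehicle against 1603 ± 115 CPM with APB-R3. Of the 12 tested enzyme genes 9 had lower estimates, with a median log2 fold change of −0.085, and of the 16 tested structural genes 9 had lower estimates, with a median of −0.066. The log2 estimates ran from −0.59 to 0.098 among the enzymes and from −1.87 to 0.47 among the structural genes, with means of −0.11 and −0.29. At an unadjusted p under 0.05 in edgeR there were 0 of 12 enzyme genes and 4 of 16 structural genes, beside 3.33% of all tested genes. The groups did not overlap in 1 enzyme gene (8.33%) and 5 structural genes (31.25%), beside 8.91% of all tested genes. Lum and Mgp, which entered the test wholly or mostly through the vehicle group, are among the structural genes of both counts. With a minimum of 5 CPM in 3 libraries the structural median turned to 0.0061. The difference between the 2 classes was not tested.

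Low values gathered in 1 library (heat map of libraries). Of the 28 tested genes, 12 had their lowest level in APB-R3 replicate 1, among them Bgn, Loxl2, Tnc, Fn1, P4ha1, Fbln2 and Postn, beside 21.6% of all tested genes with their lowest level in that library. Lox, Ecm1, Tgm2 and Serpinh1 had their highest level there. In that library the stellate cell markers summed to 528 CPM against 628 to 726 CPM in the others, the endothelial markers to 6023 CPM against 6419 to 7217 CPM, and those of portal fibroblasts and mesothelium to 36.5 CPM against 37.0 to 46.1 CPM. Hepatocyte markers were also at their lowest there, at 22.1 CPM against 23.9 to 98.6 CPM. Macrophage markers (375 CPM), cholangiocyte markers (50.9 CPM) and neutrophil markers (3.12 CPM) were not. Whether these marker levels have a part in the low matrix values was not tested. Without it, 0 of 30 tested members passed, and their median log2 fold change was −0.068. The direction of the estimate turned under at least 1 alternative for 12 of the 28 genes, namely Fn1, Lox, Loxl2, Loxl4, P4ha2, Fbn1, Thbs1, Thbs2, Dcn, Emilin1, Tgm2 and Serpinh1, and under none for the other 16. Of these 16, 11 had estimates that leaving out 1 library moved by over 1.5 times. Beside Loxl1, Postn, Vcan, Ecm1 and Fbln5, given above, the estimates ran from 0.038 to 0.16 for Plod1, −0.18 to −0.0076 for Plod2, −0.21 to −0.091 for P4ha1, −0.22 to −0.029 for Tnc, −0.16 to −0.069 for Bgn and −0.27 to −0.10 for Fbln2. The smallest adjusted p of these 11 genes under any alternative was 0.902.

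**Figure D4:**
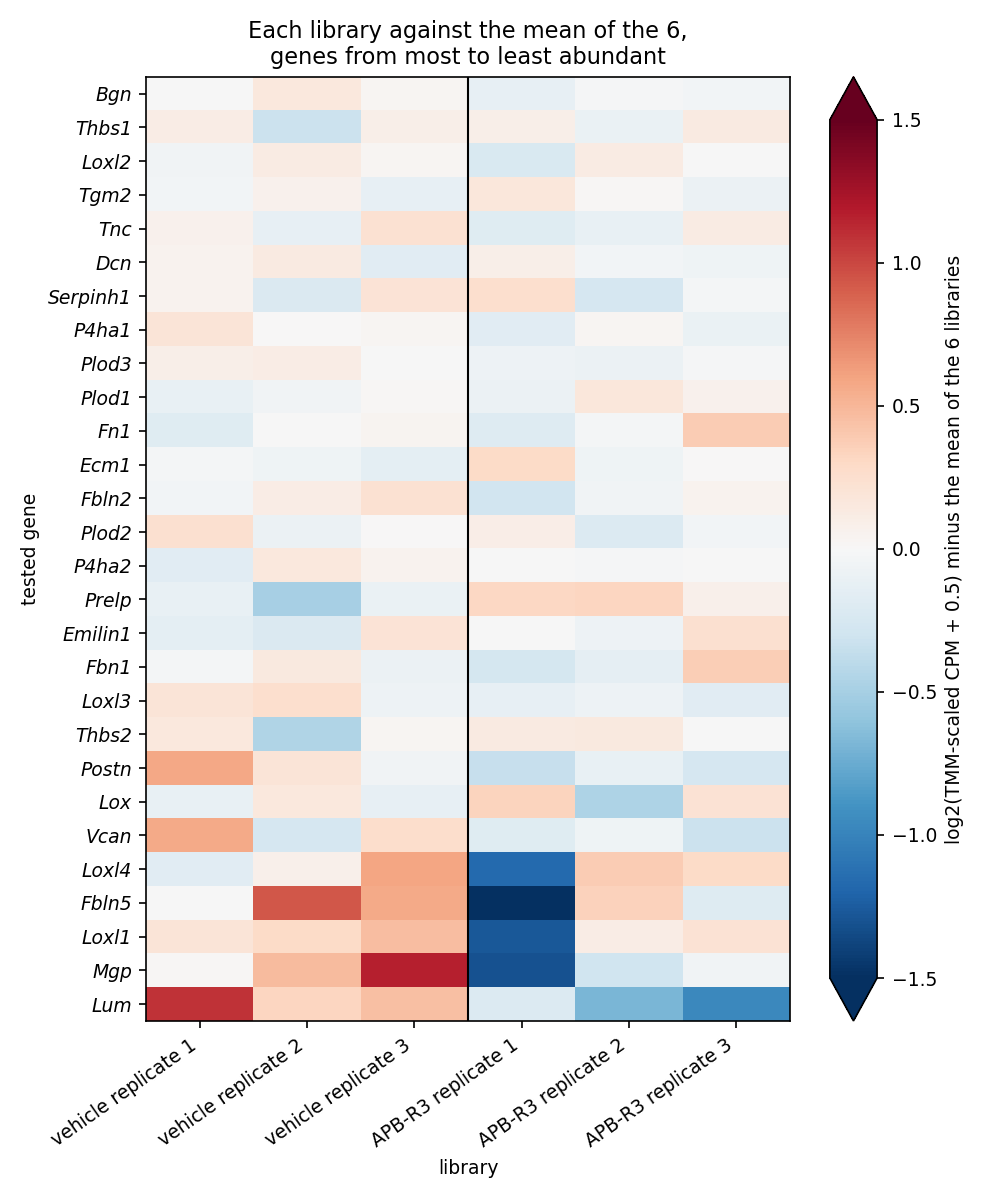
Heat map of log2(TMM-scaled CPM + 0.5) in each library, as the difference from the mean of the 6 libraries, for the 28 tested genes from most to least abundant. Colours are pale for the abundant genes at the top, and the deep blue cells of Loxl4, Fbln5, Loxl1 and Mgp lie in APB-R3 replicate 1.

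The collagens on which these enzymes act were set beside them, from a list of 12 genes. All 12 were tested and 0 passed in either direction, with 9 lower and 3 higher estimates and a median log2 fold change of −0.051. The basement membrane chains Col4a1 (2112 CPM) and Col4a2 (1077 CPM) were the most abundant, followed by Col5a2 (174 CPM) and Col1a1 (139 CPM). Those with the smallest p were Col11a1 at 1.37 (SE 0.54), Col1a2 at −0.25 (SE 0.11), Col5a3 at −0.96 (SE 0.51) and Col6a3 at −0.75 (SE 0.46) on the log2 scale. The groups did not overlap for Col11a1, which was higher with APB-R3, and Col5a3, which was lower, or 16.7% of the list beside 8.91% of all tested genes. Col11a1 had 0.863, 0.946 and 1.52 CPM with vehicle against 2.88, 3.61 and 2.18 CPM with APB-R3. It reached 0.955 CPM in all APB-R3 libraries but with vehicle only in replicate 3. Col11a1 thus entered the test mostly through the group in which it was higher. Of the 4 only Col1a2 was above 5 CPM, with 126, 141 and 122 CPM with vehicle against 94.7, 107 and 126 CPM with APB-R3, so that its groups overlapped. With 1 library left out Col6a3 ran from −1.48 (without APB-R3 replicate 3) to −0.40 (without APB-R3 replicate 2), and Col1a2 was −0.16 without APB-R3 replicate 1.

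Other genes of procollagen processing and secretion, 25 in the list, gave 24 tested, 0 passing in either direction, 15 higher and 9 lower estimates and a median of 0.044. P4hb, the beta subunit that the prolyl 4-hydroxylases share, was their most abundant member, with 359 ± 21.4 CPM with vehicle against 358 ± 16.0 CPM with APB-R3, and the log2 fold change was −0.0096. Pxdn, the peroxidase that makes sulfilimine crosslinks in collagen IV, was at 223 CPM, Mia3, the collagen cargo receptor TANGO1, at 215 and the coat protein gene Sec31a at 209 CPM. The smallest p were those of P3h2, a prolyl 3-hydroxylase, at −0.58 (SE 0.31), Colgalt1, the collagen galactosyltransferase, at −0.17 (SE 0.10), Sec13 at 0.16 (SE 0.10) and Pxdn at 0.13 (SE 0.092). With 1 library left out the estimate was −0.27 for P3h2 (without vehicle replicate 2) and 0.057 for Pxdn (without APB-R3 replicate 2), and it ran from −0.27 to −0.10 for Colgalt1. In Sec13 and Pxdn, 8.33% of those tested, all APB-R3 libraries lay above all vehicle libraries, beside 4.75% of all tested genes.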

How the data were processed

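The authors deposited whole-number counts of reads per gene symbol, not normalized, for 6 libraries. Per the labels' protocols, libraries were made with the Lexogen QuantSeq kit from 500 ng of total RNA and read the 3' end. Per the submitters' processing notes, bcl2fastq 2.20.0.422, fastp, STAR and HTSeq were used on GRCm39; other versions, the annotation, the strand setting and any molecular identifiers are not given in the sources used. Counting intervals cover counting error only. The header inside each file carries another number than the title, and libraries follow their titles.

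Counts were fitted in edgeR 4.0.16 (R 4.3.3) with filterByExpr (minimum count 10, minimum total 15), TMM and the quasi-likelihood test, treatment as the only term, two-sided, with Benjamini-Hochberg adjustment over 12776 of 20496 genes with a count. Standard errors are the log2 fold change over the square root of F. The members and lists were chosen with earlier results of these data known. Every member is named, and from each of the further lists the 4 most abundant genes and the 4 with the smallest p. Library pairs differed by more than sampling noise (chi-square per degree of freedom 5.54 to 13.6), and the labels give no batch. Alternatives were DESeq2 size factors, library totals, DESeq2 1.42.0, a minimum of 5 CPM in 3 libraries, no filter, limma-voom (limma 3.58.1), a replicate block and each library left out. In RefSeq for GRCm38.p6, used for names and neighbours only, Loxl3 overlaps Htra2, Plod3 overlaps Znhit1, Plod2 overlaps B430319G15Rik and Tnc overlaps 8030451A03Rik, so their counts are uncertain.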

Additional observations from a re-analysis of the deposited data

How the results depend on the processing

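No member passed under any of the 13 alternatives or with APB-R3 replicate 1 and vehicle replicate 2 both left out, which was chosen after seeing the data. At 5 CPM or less counting error alone gives a coefficient of variation of 16.6% to 28.1%, and that within groups was 35.6% to 61.0%. Over all genes 0 passed, but 20 with no low-count filter, and 0 to 1 with 1 library left out (1 without vehicle replicate 3). The replicate numbers were not taken to pair the libraries, since the labels do not say that they do. Deviations correlated at 0.030 to 0.058 between libraries of the same number and at −0.038 to −0.0054 between others. Within a group the deviations offset each other, so that positive values for the same number come with negative ones for the others. These weak correlations therefore cannot decide whether the numbers pair the libraries. With a replicate block 0 genes and 0 members passed, the median over members was −0.086, and the estimate of Fbn1 turned to −0.016. The median over members was −0.029 at 5 CPM or more in 3 libraries, where the 4 least abundant tested members drop out, and that over structural members turned to 0.0061 there. Fbn1 also turned with limma-voom (−0.0085). With both libraries out, the enzyme median was −0.030, and Loxl2 (0.073), Loxl4 (0.086), P4ha2 (0.040), Thbs1 (−0.080), Thbs2 (−0.023), Dcn (0.0067) and Sdc4 (0.029) turned. The log2 ratio of summed enzyme levels, −0.013, turned to 0.011 without Loxl2, and that of structural levels, −0.024, to 0.013 without Bgn. With 1 library left out these ran from −0.025 to 0.0014 and from −0.069 to 0.0056. Estimates that turned with 1 library left out ran from −0.065 to 0.23 for Fn1, −0.073 to 0.31 for Lox, −0.15 to 0.025 for Loxl2, −0.49 to 0.14 for Loxl4, −0.12 to 0.045 for P4ha2, −0.21 to 0.12 for Fbn1, −0.057 to 0.14 for Thbs1, −0.093 to 0.058 for Dcn, −0.0044 to 0.24 for Emilin1, −0.0054 to 0.13 for Tgm2 and −0.16 to 0.092 for Serpinh1. Except where said, the cause was not tested.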

Other observations

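Further matrix glycoprotein and proteoglycan genes, 40 in the list, were far from evenly expressed. Of these, 18 were under 1 CPM and 18 were not tested. Sparc, the gene of the collagen-binding protein osteonectin, had 6396 ± 405 CPM with vehicle against 6162 ± 134 CPM with APB-R3 (SD, n = 3 each), so that this 1 gene exceeded the sum of all 33 genes described above. Igfbp7 followed at 1615 CPM, then Esm1, a proteoglycan gene of sprouting endothelium, at 1275 CPM and Mmrn2, an endothelial matrix gene, at 565 CPM. Between the groups 0 of the 22 tested genes passed in edgeR in either direction, 0 were at an unadjusted p under 0.05, and 11 estimates were higher and 11 lower, with a median log2 fold change of 0.0017. DESeq2 and limma-voom also called 0 of all genes tested. The smallest p belonged to Spp1, the osteopontin gene, at 0.21 (SE 0.16), Sparcl1 at 0.64 (SE 0.55), the syndecan gene Sdc4 at −0.12 (SE 0.12) and the fibulin gene Efemp2 at −0.16 (SE 0.19). In each of these 4 the groups overlapped, and with 1 library left out they ran from 0.068 to 0.41, from 0.17 to 1.08, from −0.19 to −0.033 and from −0.30 to −0.066.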
